A study of Homo sapiens with 6 samples.

Results

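The replication-dependent histone genes encode the linker histone H1 and the core histones H2A, H2B, H3 and H4 that package newly made DNA. They were taken as the protein-coding genes of the count table whose symbol is H1-1 to H1-5 or H2AC, H2BC, H3C or H4C followed by a number. This gave 62 genes of 32353: 5 of H1, 15 of H2A, 16 of H2B, 12 of H3 and 14 of H4. By the annotation of GRCh38 (GENCODE 29 for 60 genes, RefSeq for H3C2 and H3C3), 51 lie on chromosome 6 and 11 on chromosome 1. They were followed in CAL27, an established human line of tongue squamous cell carcinoma, as total RNA of cells carrying a control plasmid (3 libraries) and of cells overexpressing RBM24 (3 libraries), which encodes an RNA-binding protein known as a splicing regulator in muscle. Every library comes from this 1 line, with no other cell type or untreated cells, and the labels give no time after transfection. Nor do they say if each replicate was a culture of its own, and the p-values then reflect how far these libraries differ from each other, which can be technical spread alone.

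Most histone messages are made in S phase, when DNA is copied, and are unusual among messenger RNAs in ending in a conserved stem-loop rather than a poly(A) tail. The stem-loop-binding protein SLBP holds that end, and the U7 small nuclear RNA guides the cut that forms it. Some histone genes can also give longer messages that run past the stem-loop and carry a poly(A) tail, which is known in differentiating or resting cells.

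The libraries held 53558773 to 68804210 gene counts. RBM24 itself was counted 129, 159 and 220 times in the control libraries and 8651, 5918 and 7648 times in the RBM24 libraries (log2 fold change 5.34, edgeR adjusted p = 2.16e-15), higher in each RBM24 library as labelled. Squamous epithelial markers summed to 778 to 883 FPKM per library, against at most 1.97 for fibroblast, 1.77 for endothelial and 0.25 for muscle markers. Of 7 leukocyte markers, CD14 stood at 9.95 to 11.2 FPKM, and the other 6 summed to at most 0.960. Control library 1 stood apart. A list of 26 RNAs that carry no poly(A) tail, such as small nuclear RNAs, took 0.0313% of its counts and 0.00157% to 0.00294% of those of each other library, a 15.4-fold excess over their mean. All 26 were highest in that library, so histone results are given with and without it. Without it, the ratio of RBM24 to control for that list went from 0.185 to 1.17.

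The stem-loop is shown first because it is the feature that marks these messages. The letters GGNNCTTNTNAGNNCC, sought on the sense strand of annotated transcripts, were present in 28 of the 60 genes with a GENCODE 29 transcript, against 110 of 19684 protein-coding genes (0.559%). A missing match says only that these letters are not in the annotated transcript. The 28 matches had 6 forms. The commonest was held by 15 genes of H2A, H2B and H3, while the H4 genes used 2 forms of their own. In the RNA sequences below, written as DNA 5′ to 3′, capitals mark the stem and its loop, and 1 gene is given for each form.
H2AC6: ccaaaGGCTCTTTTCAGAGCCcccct
H2BC5: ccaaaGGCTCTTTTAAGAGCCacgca
H2AC11: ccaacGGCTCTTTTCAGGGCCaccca
H3C6: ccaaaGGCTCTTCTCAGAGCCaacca
H4C8: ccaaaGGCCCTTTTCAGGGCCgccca
H4C14: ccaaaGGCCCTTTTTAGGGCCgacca
Their annotated transcripts do not all stop there. Among transcripts that hold it, the longest stretch past it was 1128 bases for H2AC6, 1761 for H2AC11 and 1862 for H3C6. It was 1655 for H4C8 and 1167 for H4C14, but 39 for H2BC5. Transcripts that lack the stem-loop were not measured, and H2BC5 has 2 annotated transcripts, with the gene spanning chr6:26158146-26171349. The gene length that the authors' counting used can be recovered from the ratio of counts to FPKM. By that length, 41 genes were under 1000 nt, near the size of a message that ends at the stem-loop, and 21 were 1000 nt or more.

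The histone genes as a whole made up a small part of the counts, most of it from H1-2, H2BC12, H2AC6 and H2BC5. Summed over all 62, they reached 282, 240 and 225 CPM (each count divided by the scaled library total) in control libraries 1, 2 and 3, and 246, 242 and 241 CPM in RBM24 libraries 1, 2 and 3. The control mean was 249 ± 29.2 CPM (SD, n = 3) and the RBM24 mean 243 ± 2.65 CPM (SD, n = 3). The RBM24 libraries lay within the control range, and the ratio of RBM24 to control was 0.975, or 1.04 without control library 1. The other 58 genes summed to 99.4, 69.1 and 62.5 CPM in the controls and 75.7, 72.1 and 73.4 CPM in the RBM24 libraries. Their ratio was 0.958, or 1.12 without control library 1. In bulk RNA, a change in the share of cells in S phase and a change in histone RNA per cell cannot be told apart.

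By class, the linker histones summed to 71.1, 57.3 and 52.2 CPM in the controls and 61.1, 58.3 and 56.9 CPM in the RBM24 libraries. H2A summed to 64.9, 55.7 and 55.0 CPM against 54.3, 52.0 and 54.9 CPM. H2B, which with H2A forms the dimers on the outside of the nucleosome, held the largest share of histone counts, at 109, 103 and 96.1 CPM against 106, 106 and 105 CPM. For H1 and H2B the groups overlapped, and for H2A the RBM24 libraries lay below the controls by less than the controls differed among themselves. H3 gave 22.5, 17.1 and 16.0 CPM against 17.3, 19.6 and 17.4 CPM. H4, the class with the lowest sum, gave 13.8, 6.79 and 5.97 CPM against 7.15, 6.08 and 6.38 CPM. Without control library 1 the ratio of RBM24 to control went from 0.976 to 1.07 for H1, from 0.918 to 0.971 for H2A, from 1.03 to 1.06 for H2B and from 0.977 to 1.09 for H3. The ratio moved most in H4, from 0.74 with all 6 libraries to 1.02 without control library 1. The H4 sum of that library was 2.12 times the mean of the other 5.

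**Figure D1:**
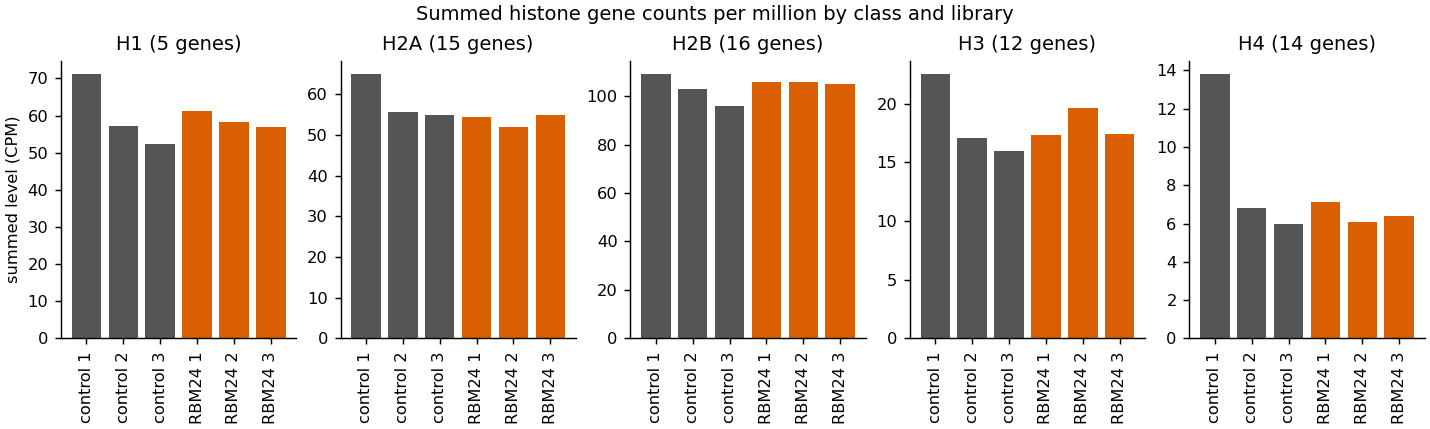
Summed CPM (y axis, from 0, scaled separately in each panel) of the histone genes of each class in each library (x axis; grey control, orange RBM24). Control library 1 is the highest bar in every class, most of all for H4 at 13.8 CPM against 5.97 to 7.15 in the others.

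Single genes were compared with edgeR's quasi-likelihood test, with p-values adjusted by Benjamini-Hochberg over all 17887 genes that passed a filter on low counts. Of the 62 histone genes 42 passed: 3 of H1, 9 of H2A, 14 of H2B, 8 of H3 and 8 of H4. With all 6 libraries 1 was called higher at an adjusted p under 0.05 and 0 lower, against 1.54% of all tested genes called in either direction, 0.855% higher and 0.682% lower. The gene was H2BC11. DESeq2 also called H2BC11 alone, while limma on FPKM called 0. At an unadjusted p under 0.05 stood 13 of the 42 (31.0%), against 13.0% of all tested genes, and 7 of 42 (16.7%) without control library 1, against 11.6% of all tested genes there. The median log2 fold change of the 42 was -0.21, with 31 below 0 and 11 above, where all tested genes had a median of -0.00. Without control library 1 the median was 0.10, with 14 below 0 and 28 above, and 17 genes had changed from a negative to a positive value while 0 went the other way. The 2 groups did not overlap for 3 genes higher and 4 lower in RBM24 (16.7% of the 42), near the 18.1% of all tested genes, of which 9.53% were higher and 8.62% lower. Without control library 1 it was 10 higher (23.8%) and 4 lower (9.52%), where all tested genes gave 14.7% higher and 13.8% lower.

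**Figure D2:**
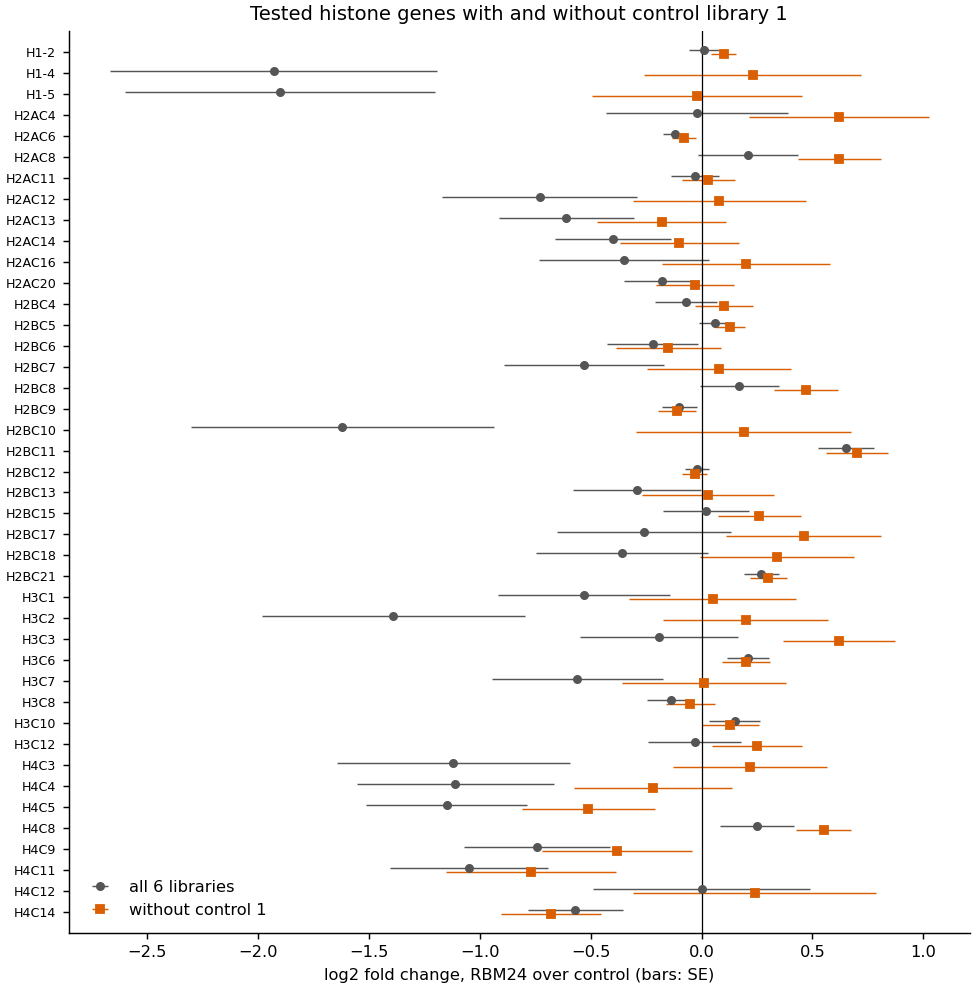
Log2 fold change of RBM24 over control (x axis, bars show the standard error) for the 42 tested histone genes (y axis, by class), with all 6 libraries (grey circles) and without control library 1 (orange squares). H1-4, H1-5, H2BC10 and H3C2 move from -1.93, -1.90, -1.62 and -1.39 to between -0.02 and 0.23, while H2BC11 stays at 0.65 and 0.70.

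H2BC11 encodes a core histone H2B and was the only member called in the edgeR fit of all 6 libraries with the low-count filter. Its counts were 267, 282 and 238 in the controls and 501, 334 and 512 in the RBM24 libraries. Scaled to CPM these were 4.85, 5.24 and 3.78 CPM against 7.26, 6.17 and 8.32 CPM. Every RBM24 library lay above every control, and control library 1 lay within the range of the other controls. The log2 fold change was 0.65 (SE 0.126, edgeR adjusted p = 0.0133), and 0.70 without control library 1 (edgeR adjusted p = 0.0259). It kept its call when any 1 of the 6 libraries was left out, with values of 0.52 to 0.75. On log2(FPKM + 1), limma gave 0.57 with an adjusted p of 0.141, and 0.106 to 0.269 over the 5 other limma settings, so the call rests on the count test.

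The gene (ENSG00000124635.9) lies on the minus strand of chromosome 6 at chr6:27125897-27132750 (GRCh38, GENCODE 29), has more than 1 exon there, and starts 292 bases from H2AC11, a core histone H2A gene on the other strand. H2AC11 stood at 5.94, 4.98 and 5.51 CPM in the controls and 5.37, 4.64 and 6.11 CPM in the RBM24 libraries, which overlap. Its log2 fold change was -0.03 (edgeR adjusted p = 0.950), so of the pair only H2BC11 passed the test; the difference between the 2 genes was not tested. The 250 bases before the RefSeq start of H2BC11 are given because they cover most of the stretch between the starts of this pair. They lie at chr6:27132796-27133045 on the minus strand (RefSeq, GRCh38.p14), reach just past the annotated start of H2AC11, and are read 5′ to 3′ towards H2BC11, and capitals mark the octamer ATTTGCAT, the motif bound by OCT1, at 47 bases before the RefSeq start.
H2BC11: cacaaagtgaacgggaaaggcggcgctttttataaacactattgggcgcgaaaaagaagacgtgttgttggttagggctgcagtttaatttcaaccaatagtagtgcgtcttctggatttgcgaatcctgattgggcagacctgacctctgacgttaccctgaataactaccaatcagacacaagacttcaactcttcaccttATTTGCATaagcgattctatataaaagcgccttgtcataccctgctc
Searched as ATTTGCAT or its reverse complement ATGCAAAT in the 250 bases before each RefSeq start, the octamer was found for 13 of 16 H2B genes (81.2%) and 10 of 14 H2A genes (71.4%). It was found for 0 of 5 H1, 0 of 10 H3 and 0 of 12 H4 genes, and in 573 of all 35116 promoters (1.63%). It was thus present in most H2B genes, of which 1 of 14 tested was called, and a match is a description of the letters only.

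There were 10 pairs of histone genes transcribed away from each other from starts within 1000 bases, 9 of them an H2A with an H2B gene. Both genes were tested in 7 pairs. In H2BC8 and H2AC8, 283 bases apart, the log2 fold changes were 0.17 and 0.21, and 0.47 and 0.62 without control library 1, none of them past the test. In H2BC21 and H2AC20, the only such pair on chromosome 1, they were 0.27 and -0.18. In H2BC12 and H2AC12 they were -0.02 and -0.73, and -0.03 and 0.08 without control library 1.

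Among the linker histones, H1-2 held nearly all counts. It stood at 64.9, 56.5 and 51.8 CPM in the controls and 60.3, 57.7 and 56.2 CPM in the RBM24 libraries. The groups overlapped and the log2 fold change was 0.01 (SE 0.0688, edgeR adjusted p = 0.977), or 0.10 without control library 1. The other H1 genes were low and followed control library 1. H1-4 had 161, 23 and 6 counts in the controls and 27, 13 and 15 in the RBM24 libraries. H1-5 had 92, 14 and 7 counts against 15, 8 and 10. Outside control library 1, both had at most 27 counts. Their log2 fold changes of -1.93 (edgeR adjusted p = 0.262) and -1.90 (edgeR adjusted p = 0.237) went to 0.23 and -0.02 without it. Without control library 3 instead, whose counts were the lowest, both were called lower at -2.50 (edgeR adjusted p = 0.0224) and -2.43 (edgeR adjusted p = 0.0319), in a comparison where 1.10% of all tested genes were called lower. With no filter on low counts, these were among 10 members called lower, against 1.05% of all genes there. All 10 were highest in control library 1.

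Among the H2A genes, H2AC6 was by far the most abundant per length, at a mean of 24.0 FPKM. H2AC20 had 5.35, H2AC8 3.04 and H2AC11 2.23. H2AC6 stood at 47.5, 44.0 and 43.6 CPM in the controls and 40.9, 40.9 and 42.7 CPM in the RBM24 libraries. The RBM24 libraries all lay below the controls, but by little: the log2 fold change was -0.12 (SE 0.0557, edgeR adjusted p = 0.387). H2AC20 stood at 3.67, 3.03 and 2.46 CPM against 3.21, 2.83 and 2.00 CPM, which overlap, with a log2 fold change of -0.18 (edgeR adjusted p = 0.708). Without control library 1, H2AC6, H2AC20 and H2AC11 had log2 fold changes of -0.08, -0.03 and 0.03.

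Among the H2B genes, H2BC12 was the highest of all 62 per length, at a mean of 95.5 FPKM, ahead of H1-2 at 73.2. It stood at 50.4, 53.5 and 50.3 CPM in the controls and 50.5, 52.8 and 49.1 CPM in the RBM24 libraries. Control library 1 was not above the rest, and the log2 fold change was -0.02 (SE 0.0534, edgeR adjusted p = 0.939). H2BC5, at a mean of 19.4 FPKM, gave a log2 fold change of 0.06 (edgeR adjusted p = 0.794). H2BC9 stood at 9.07, 9.45 and 9.06 CPM in the controls and 8.83, 8.78 and 8.17 CPM in the RBM24 libraries, which lay below them without passing the test (-0.10, edgeR adjusted p = 0.650). H2BC21, whose gene lies on chromosome 1, stood at 8.04, 7.61 and 7.55 CPM in the controls and 9.22, 9.19 and 9.50 CPM in the RBM24 libraries. These groups did not overlap, but the log2 fold change of 0.27 (SE 0.0772) had an edgeR adjusted p of 0.109. H2BC10 had 71, 11 and 6 counts in the controls and 13, 10 and 8 in the RBM24 libraries, with a log2 fold change of -1.62 (edgeR adjusted p = 0.313) that went to 0.19 without control library 1. Without that library H2BC12, H2BC5, H2BC9 and H2BC21 had log2 fold changes of -0.03, 0.13, -0.11 and 0.30, none past the test.

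**Figure D3:**
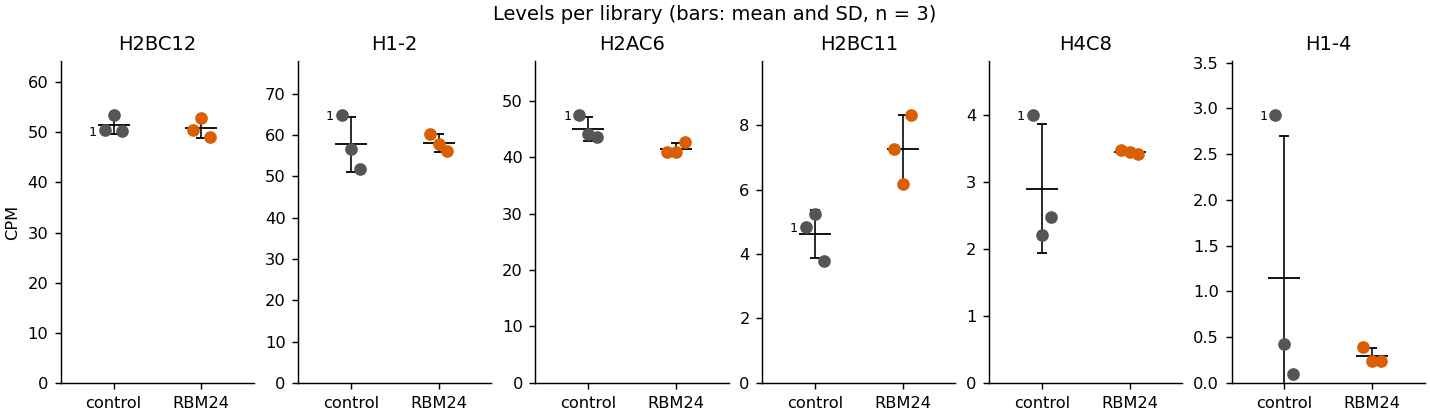
CPM (y axis, from 0, scaled separately) of 6 histone genes in control (grey) and RBM24 (orange) libraries; points are libraries, bars the mean and SD of 3, cut at 0, and 1 marks control library 1. H2BC11 separates the groups, H2BC12 and H1-2 overlap, and control library 1 lies far above the other 5 for H1-4.

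Among the H3 genes, H3C6 stood at 5.74, 5.76 and 5.93 CPM in the controls and 6.11, 7.62 and 6.48 CPM in the RBM24 libraries. The RBM24 libraries were all higher, with a log2 fold change of 0.21 (SE 0.096) that did not pass the test (edgeR adjusted p = 0.367). H3C10 and H3C8 had log2 fold changes of 0.15 and -0.14 with overlapping groups. Without control library 1 the values of H3C6, H3C10 and H3C8 were 0.20, 0.13 and -0.05. H3C2 had 95, 11 and 17 counts in the controls and 20, 13 and 18 in the RBM24 libraries, so that its log2 fold change went from -1.39 to 0.20 without control library 1.

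Among the H4 genes, H4C8 stood at 4.00, 2.21 and 2.48 CPM in the controls and 3.48, 3.44 and 3.41 CPM in the RBM24 libraries. Control library 1 was above all 3 RBM24 libraries, and the other controls below them. The log2 fold change was 0.25 (SE 0.167, edgeR adjusted p = 0.566) with all libraries. Without control library 1 it was 0.55 with an edgeR adjusted p of 0.0476, just inside the threshold, so H4C8 was called there beside H2BC11; the background of genes called higher in that comparison was 0.654%. H4C14 stood at 1.09, 1.58 and 1.26 CPM in the controls and 1.09, 0.628 and 0.894 CPM in the RBM24 libraries, a log2 fold change of -0.57 (edgeR adjusted p = 0.248), and -0.68 without control library 1. H4C5 had 87, 39 and 29 counts against 26, 21 and 29, and its log2 fold change of -1.15 (edgeR adjusted p = 0.152) was smaller, at -0.51 (edgeR adjusted p = 0.538), without control library 1. Without control library 3 it was -1.48 and called lower (edgeR adjusted p = 0.0205).

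The excess in control library 1 was spread over the members very unevenly. That library was the highest of the 6 for 33 of the 42 tested genes (78.6%), against 23.2% of all tested genes, and at least 2 times the mean of the other 5 for 19 (45.2%), against 0.844%. Over all 62, including the genes too low to test, it was the highest for 46 and at least 2 times the others for 31. The ratio to the other 5 ranged from 0.789 for H2BC11 to 10.5 for H1-4 among tested genes. The 4 genes with the most counts, H1-2, H2BC12, H2AC6 and H2BC5, had ratios of 1.15, 0.982, 1.12 and 1.09. Together they held 64.7% of all histone counts in control library 1 and 69.2% to 72.2% in the others. The 20 untested genes summed to 6.64 CPM in control library 1 and 0.906 to 1.42 CPM in the others. Of these, 8 had 0 counts in at least 1 library, where a count of 0 allows up to 3.

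Gene length went with the excess, and so did a low level. Of the 25 tested genes under 1000 nt, 15 (60.0%) were at least 2 times as high in control library 1, with a median ratio of 2.24. Of the 17 tested genes of 1000 nt or more, 4 (23.5%) were, with a median of 1.22. Other short genes did not show it: of 200 other tested protein-coding genes under 1000 nt, 1 (0.500%) was at least 2 times as high, and their median ratio was 1.00. Of all 151 tested genes that were at least 2 times as high in control library 1, 49 were protein-coding, and 19 of those 49 were these histone genes. H1-2 and H2BC12 were short and yet near 1. The short genes H2BC5, H2BC4, H2AC20, H3C12 and H2AC8, above 1 CPM in every library, had ratios of 1.09, 1.33, 1.36, 1.48 and 1.51. The long genes at 2 times or more, H2BC7, H2BC18, H4C5 and H4C9, had RBM24 means of only 0.371, 0.524, 0.412 and 0.369 CPM. Yet H2BC6 and H4C12, with RBM24 means of 0.668 and 0.151 CPM, had ratios of 1.22 and 1.42. Length and level were not separated. Over members with annotated exons, tested or not, those with more than 1 exon had a median ratio of 1.17 (12 genes) and those with 1 exon 2.24 (48 genes). The part that RNA without poly(A) tails in this library plays in the histone values was not tested.

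**Figure D4:**
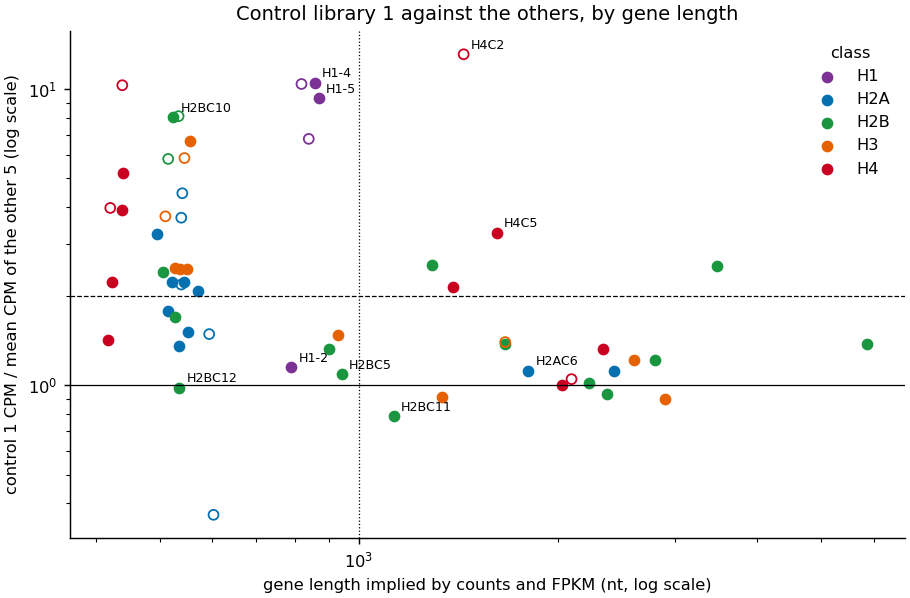
Level in control library 1 over the mean of the other 5 libraries (y axis, log scale) against the gene length implied by counts and FPKM (x axis, nt, log scale) for the 58 histone genes with counts in that library, coloured by class; filled points were tested, open points were too low, and 4 genes at 0 counts there are not drawn. Solid and dashed lines mark ratios of 1 and 2 and the dotted line 1000 nt; most points above 2 are under 1000 nt.

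Sums gave the contrast for H3, for H4 and, less strongly, for H2A, but not for H2B. Short H2A genes reached 11.5 CPM in control library 1, 1.73 times the mean of the other 5, and long H2A genes were 1.12 times. Short H4 genes reached 4.94 CPM in control library 1 and 0.926 to 1.69 CPM in the others, and short H3 genes 8.13 CPM against 2.43 to 3.44 CPM. Long H3 genes reached 14.4 CPM against 13.5 to 16.1 CPM, and so did not stand out. Long H4 genes did, but less than short ones: they reached 8.82 CPM against 4.75 to 5.46 CPM. This was 1.69 times the mean of the other 5, where short H4 genes were 3.92 times. Among them was H4C2, at 1.11 CPM in control library 1, whose implied length was 1440 nt but whose annotated transcript is 438 nt. Short H2B genes, most of whose counts are H2BC12, reached 78.7 CPM against 71.1 to 75.8 CPM. That was 1.06 times the mean of the other 5, and long H2B genes were 1.05 times.

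**Figure D5:**
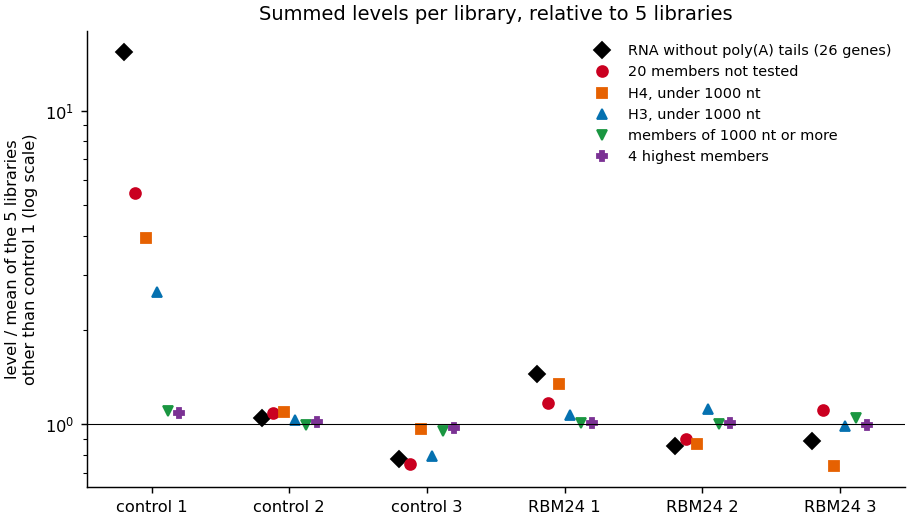
Summed level in each library over the mean of the 5 libraries other than control library 1 (y axis, log scale) for the RNAs without poly(A) tails and for 5 sets of histone genes (x axis, libraries). The RNAs without poly(A) tails are 15.4 times the mean in control library 1 and the untested histone genes 5.45 times, while the 4 highest histone genes are at 1.08.

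Few of the genes that make, carry and time histone messages passed the test. A processing list of 36 tested genes held factors of histone mRNA end processing and decay, and also cell cycle genes such as CCNE1 and CDK2. Of the 36, 1 was called higher and 0 lower, against 0.855% and 0.682% of all tested genes. No end processing or decay factor was called. The gene called was CCNE1, the cyclin E that with CDK2 switches on histone gene transcription at the start of S phase. It stood at 21.3, 23.6 and 20.8 CPM in the controls and 29.1, 27.0 and 28.1 CPM in the RBM24 libraries, which did not overlap (log2 fold change 0.36, edgeR adjusted p = 0.00958). Without RBM24 library 1 the edgeR adjusted p was 0.0631. SLBP stood at 73.8, 70.0 and 71.0 CPM against 75.3, 74.7 and 73.0 CPM, a log2 fold change of 0.05 (edgeR adjusted p = 0.685). ZNF473, a zinc finger protein of the U7 processing complex, and CCNA2, cyclin A, had values of 0.14 and 0.15 and did not pass. The median of the 36 was 0.01.

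Of 37 tested histone chaperones, 1 was called higher and 0 lower, against 0.855% and 0.682% of all tested genes. It was HJURP, which loads the centromeric histone CENPA. HJURP stood at 62.2, 60.6 and 63.3 CPM in the controls and 75.3, 74.0 and 74.6 CPM in the RBM24 libraries (log2 fold change 0.27, edgeR adjusted p = 0.0082), with an edgeR adjusted p of 0.0531 without RBM24 library 1 and 0.064 without RBM24 library 2. ASF1B, which hands on H3 and H4, and UBN1, a subunit of the HIRA complex, both had 0.19 with edgeR adjusted p of 0.087 and 0.097. A list of 14 other tested histone genes, such as CENPA and H1-10, had symbols outside the rule for the members. Of these, 2 were called higher and 0 lower, against the same 0.855% and 0.682% of all tested genes. CENPA itself gave 33.5, 35.3 and 36.1 CPM against 41.9, 42.4 and 40.3 CPM (0.25, edgeR adjusted p = 0.0353), and lost the call, with edgeR adjusted p of 0.0518 to 0.233, without control library 1 or 2 or any RBM24 library. The linker histone variant H1-10 had 0.21 (edgeR adjusted p = 0.118).

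Of 44 tested genes of S phase and DNA replication, edgeR called 0 in either direction, where it called 1.54% of all tested genes. At an unadjusted edgeR p under 0.05 stood 5 of the 44, where 13.0% of all tested genes did. DESeq2 called 2 of the 44 higher, and 210 of all 17887 tested genes. The genes with the smallest p were RPA2, a subunit of the protein that coats single-stranded DNA (0.18, edgeR adjusted p = 0.0758), TYMS, the thymidylate synthase (0.16, edgeR adjusted p = 0.107), and the transcription factor E2F2 (0.28, edgeR adjusted p = 0.225). The median of the 44 was 0.01, equal to that of the processing list and close to the -0.00 of all tested genes.

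Some histone genes are so alike that reads can be shared. In 11 of the 60 genes with annotated transcripts, at least 50% of all 100-nt windows also occur in another histone gene, among them H2AC18 and H2AC19, H3C14 and H3C15, H4C14 and H4C15, and H4C11 and H4C12. Their single values are uncertain, since how the authors treated reads that map to several places is not stated in the sources used here. A further limit is strand: 10 genes overlap a gene on the other strand, H2BC5 and H4C14 among them, and whether counting used strand is not given either. H2BC11, H1-2, H2BC12 and H2AC6 are in none of these sets.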

How the data were processed

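RNA of 6 CAL27 libraries (150-nt pairs, per the labels) was aligned by the authors to GRCh38 with HISAT2, per the submitters' processing notes. Columns marked NC were read as control plasmid. The authors deposited raw counts (32353 genes) and FPKM values (31513 genes); the counter, annotation release, strand setting and library kit are not given in the sources used here.

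Counts were tested in edgeR 4.0.16 (R 4.3.3) with filterByExpr, TMM factors and a quasi-likelihood F test on group, and p-values were adjusted by Benjamini-Hochberg over 17887 genes. CPM use the TMM-scaled totals, so depth limits low genes most. Fits that leave out a library keep the same genes. Alternatives were other scaling, no filter, protein-coding genes only, DESeq2 1.42.0, limma 3.58.1 on log2(FPKM + 1) or log2(FPKM + 0.1), and the replicate number as a block. Limma was first run with its default variance model; the version with an intensity trend was added after the data and earlier counts had been seen, and both are given. The pipeline was tested on simulated data.

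The members and gene lists were chosen with earlier results of these data known. Named genes are members called with or without control library 1, the 3 highest per class by mean CPM, the 3 largest changes in each direction, and per list those called or else the 3 smallest p; H2AC12, H2AC8, H2BC8, H3C2 and SLBP were named beside them after their values were seen. A gene that this rule names is not reported here. Tables were joined in pandas 2.3.3 (Python 3.11.15) and plots drawn with matplotlib 3.10.9.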

Additional observations from a re-analysis of the deposited data

How the results depend on the processing

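The call of H2BC11 held under both other scalings, DESeq2, no filter, protein-coding genes only and each library left out; the 3 limma fits on FPKM and the 3 with an intensity trend, added after the data were seen, called 0 members. Without the low-count filter 11 members were called, 1 higher and 10 lower, where 1.05% of all genes were called lower. The 10 were H1-3, H1-4, H1-5, H2BC10, H3C2, H3C11, H4C2, H4C3, H4C4 and H4C5. All 10 were highest in control library 1, at 3.27 (H4C5) to 13.1 (H4C2) times the mean of the other 5. The fit without the filter was not repeated without that library, and the cause was not tested. Leaving out a library gave 1 to 4 members called: 2 without control library 1, and 4 without control library 3, where H1-4 (-2.50), H1-5 (-2.43) and H4C5 (-1.48) were called lower, as were 1.10% of all tested genes. The members' median then ran from -0.44 to 0.10 and was above 0 only without control library 1. The H4 ratio ran from 0.637 to 1.02, and the ratio for RNA without poly(A) tails from 0.129 to 1.17 for the list and from 0.26 to 1.19 for 4 gene types (0.353 with all libraries).

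Among the 30 named genes, 5 changed sign in some fit. With a library left out, H1-2 ran from -0.06 to 0.10, H1-4 from -2.50 to 0.23, H2AC11 from -0.13 to 0.07, H2BC12 from -0.04 to 0.01 and H2BC10 from -2.15 to 0.19. With total counts H2AC11 was 0.00 and H2BC12 0.01; with limma, trend or not, H2AC11 was 0.00 where 1 was added to FPKM, and H2BC12 0.02 in all 6 fits. In all, 467 of 540 values of named genes kept direction and side of the threshold, 34 lost the call, 18 gained it and 21 changed sign.

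The list calls also moved. The processing list (1) fell to 0 in 5 of 6 limma fits and ran from 0 to 1 with a library left out (0 without RBM24 library 1). The chaperones (1) gave 2 with total counts, 2 without the filter, 3 in DESeq2 and 0 in 4 limma fits, and 0 to 1 with a library left out (0 without RBM24 library 1 or 2). The list of other histone genes (2) gave 0 in 4 limma fits and 1 in 2 with a trend. With a library left out it gave 0 to 2 (0 without RBM24 library 2, and 1 without control library 1 or RBM24 library 1 or 3). S phase genes (0) gave 2 with total counts and 2 in DESeq2. Over all genes, 55.6% of 275 calls were higher, against 67.8% with total counts, 64.3% without control library 1 and 39.6% without control library 3; the calls were 153 higher and 122 lower. With limma 26 higher and 2 lower were called on log2(FPKM + 1), or 46 and 4 with the trend.

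Replicate numbers did not pair the libraries: deviations of same-numbered libraries correlated at 0.00724, 0.0555 and -0.00039. With the replicate block 158 genes were higher and 135 lower, and 1 member, H2BC11, was called.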
